A study of Mus musculus with 18 samples.

Results

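The tumour suppressor gene Trp53, which encodes p53, and 32 genes known as its transcriptional targets were followed in 3 sorted populations of mouse mammary epithelium. The 33 genes were taken by symbol from a deposited table of 27179 gene identifiers, and all 33 were found and passed the filter on low counts. Bulk RNA sequencing had been done on basal cells, luminal progenitors (LP) and mature luminal cells (ML) sorted from female mice aged 14 weeks. The KO mice carried MMTV-cre(T/+), Brca2(delta/delta) and Trp53(delta/+), that is, loss of both copies of Brca2 and of 1 copy of Trp53, and the controls were called wildtype (WT). Each genotype had 3 individual mice and each mouse gave 1 library per population, so the 18 libraries form 6 groups of 3. In this model the promoter of the mouse mammary tumour virus drives the Cre recombinase that deletes floxed alleles. The labels give the WT libraries the same strain, MMTVcre Brca2(fl/fl) Trp53(fl/+), so whether the controls carried the transgene and the floxed alleles cannot be told from it. The genotypes differed in Brca2 and Trp53 at once, and the effects of the deletions cannot be told apart.

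p53 is a transcription factor that is held at a low level by the ubiquitin ligase Mdm2 and its partner Mdm4 and is stabilised when DNA is damaged. It binds as a tetramer to DNA elements made of a pair of half-sites and switches on genes that stop the cell cycle, repair DNA, limit growth or kill the cell. Among these targets is Mdm2 itself, which closes a feedback loop, and Cdkn1a, whose product p21 inhibits cyclin-dependent kinases and thereby lets the DREAM complex hold down the genes of cell division. Brca2 is needed for repair of DNA breaks by homologous recombination, and its loss is a source of the damage that p53 responds to.

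The DNA just before the start sites is shown first, since p53 response elements often lie near start sites. It is printed for those members whose RNA fell in LP of KO mice and that held a match to a p53 half-site. RefSeq promoter sequences on GRCm38.p6 were at hand for 25 of the 33 members, and 12 of the 25 (48%) held at least 1 match to the 10-base p53 half-site consensus within the 250 bases before a start site. Of all 27025 genes in the same table, 8.2% did. A gene with several start sites counted if any of them had a match. Per promoter, 12 of 35 (34.3%) held a match among the members and 7.13% among all 32851. Other start sites of Cdkn1a (window chr17:29093519-29093768) and Aen (window chr7:78895677-78895926) had 0 matches. The consensus reads the same on both strands, so each match counts once. The 250 bases before the first exon of Cdkn1a (chr17:29090729-29090978, plus strand, 3 of the bases exonic in GENCODE M21) hold 2 matches, printed in capitals, which begin 73 and 51 bases before the start site.
Cdkn1a: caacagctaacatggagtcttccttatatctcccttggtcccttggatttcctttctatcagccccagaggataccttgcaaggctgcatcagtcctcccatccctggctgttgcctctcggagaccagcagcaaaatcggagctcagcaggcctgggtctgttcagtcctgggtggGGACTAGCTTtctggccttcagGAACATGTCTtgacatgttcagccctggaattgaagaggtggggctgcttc

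Cdkn1a was the only member with a pair of matches at most 13 bases apart, an arrangement that 0.0666% of all genes in the table showed. The next sequences are the 30-base windows around the single matches of Mdm2 (chr10:117710925-117710954, minus strand), Ccng1 (chr11:40755452-40755481, minus strand), Aen (chr7:78895927-78895956, plus strand, within an exon) and Trp53 itself (chr11:69580274-69580303, plus strand). Bax (chr7:45467080-45467109, minus strand), a target whose RNA passed no test here, is printed beside them for comparison. Capitals again mark the match.
Mdm2: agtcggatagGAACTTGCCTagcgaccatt
Ccng1: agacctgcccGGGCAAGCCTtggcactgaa
Aen: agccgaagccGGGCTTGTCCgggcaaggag
Trp53: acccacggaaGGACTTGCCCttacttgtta
Bax: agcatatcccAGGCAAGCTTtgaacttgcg
The other members with a match were Gadd45a, Rps27l, Sesn1, Polk, Ei24 and Ddit4l, none of them called in LP. Of the remaining members that fell in LP, Btg2, Mdm4 and Eda2r held no match, and no promoter sequence was at hand for Trp53inp1. A match describes the letters in the window and does not show that p53 binds there.

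Library totals ran from 5.97 to 39.19 M counts. LP KO (22.42 to 32.72 M) were all deeper than LP WT (9.29 to 16.17 M), and the part of depth in the LP results was not tested. Levels are given below in CPM, counts scaled to a common library size after TMM normalization, in the order mouse 1, 2 and 3 of the genotype, and a gene was counted as changed where edgeR's quasi-likelihood test gave a Benjamini-Hochberg adjusted p under 0.05 over the 16466 genes tested. The sorted populations carried their defining markers: the summed level of 9 basal markers was 14454 to 22232 CPM in basal libraries and at most 533 CPM elsewhere. LP markers summed to 3604 to 7029 CPM in LP libraries and at most 1209 CPM elsewhere. ML markers summed to 891 to 8177 CPM in ML libraries and at most 807 CPM elsewhere. ML KO departed from ML WT in these sums, with basal markers at 477 to 533 against 18.9 to 26.1 CPM (6 of 9 higher), LP markers at 359 to 1209 against 106 to 129.5 CPM (7 of 8 higher) and ML markers at 891 to 3911 against 6602 to 8177 CPM (3 of 8 lower). The library of ML KO mouse 1 stood apart, with the lowest ML and the highest LP marker sum of its group. Its LP marker sum (1209 CPM) was above its ML marker sum (891 CPM). In basal KO, LP markers summed to 122 to 228 against 60.4 to 79.4 CPM in basal WT (2 of 8 higher) and ML markers to 66 to 106 against 32.1 to 56.6 CPM (1 of 8 higher). In LP KO, ML markers summed to 155 to 352 against 565 to 807 CPM in LP WT (4 of 8 lower). The part of these markers in the results of each population was not tested. The 11 immune markers stayed at or under 14.1 CPM in sum except in LP KO mouse 3, at 40.2 CPM. Fibroblast markers were higher, at 436 to 573 CPM in basal KO and 359.9 to 416 CPM in basal WT. They summed to 79.6 to 374 CPM in ML KO, 49.3 to 271 CPM in ML WT, 13 to 95.1 CPM in LP KO and 31.7 to 52.3 CPM in LP WT. Endothelial and pericyte markers stayed at or under 49 CPM and adipocyte markers at or under 30.5 CPM.

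Trp53 (chr11:69580348-69591873 on GRCm38.p6, the build of all coordinates here) fell in all 3 populations of KO mice, and the KO mean was the smallest share of the WT mean in LP. In LP the KO libraries held 9.05, 7.25 and 7.71 CPM and the WT libraries 67.1, 72.6 and 150.3 CPM. Basal KO cells held 35.8, 18.6 and 13.7 CPM against 57, 78.9 and 88.7 CPM in WT, and ML held 14.9, 13.6 and 17 CPM in KO against 47.2, 49.2 and 39.6 CPM in WT. The genotypes did not overlap in any population, and the LP KO libraries were the lowest of all 18. The KO mean was 8.28% of the WT mean in LP (log2 fold change -3.60, 95% CI -4.34 to -2.86, adjusted p = 5.3e-06). It was 30.3% in basal cells (-1.72, CI -2.40 to -1.03, adjusted p = 0.0034) and 33.5% in ML (-1.57, CI -2.27 to -0.88, adjusted p = 0.0023). The intervals lay wholly below -1, the log2 value that loss of 1 of 2 equal copies would give, in basal cells and LP, and reached across it in ML. The basal call was lost without KO mouse 2 (adjusted p = 0.056). The fall was larger in LP than in ML (difference of log2 fold changes -2.03, CI -2.99 to -1.06, adjusted p = 0.0098), a call that was lost without WT mouse 3 (adjusted p = 0.085), whose LP library had by far the highest level. Against basal cells the difference was -1.88 (CI -2.84 to -0.92) with an adjusted p of 0.0503. It ran from 0.0076 to 0.19 over 12 alternative settings and passed in 4, which were RLE scaling, no filter on low counts, DESeq2 and the mouse as a replicate block. The count covers all exons together, and the sources used here do not name the exons that the deletion removes. In bulk samples, fewer cells of a type and less RNA per cell cannot be told apart. Brca2, the other deleted gene, did not pass the test: its KO means were 58.2%, 71.3% and 119% of WT in basal cells, LP and ML, with overlapping groups (adjusted p = 0.68, 0.51 and 0.84), so its gene-level RNA does not show the labelled loss.

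**Figure D1:**
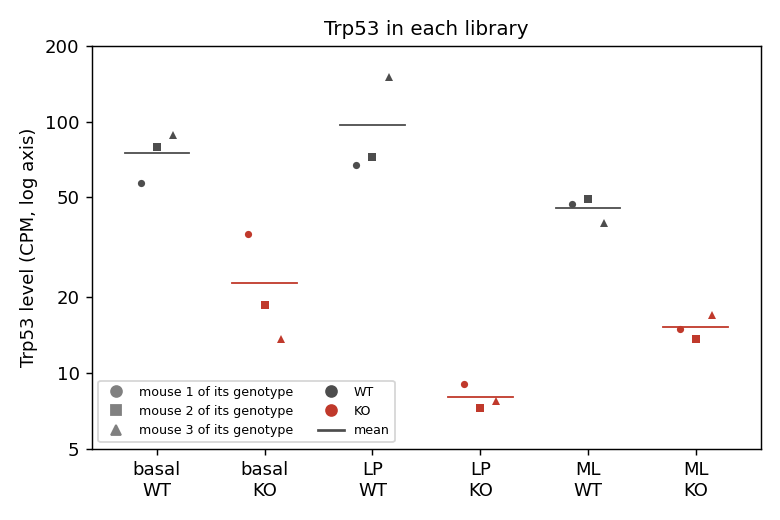
Trp53 level in CPM (log axis) in each of the 18 libraries, by population and genotype; symbols mark the mouse and bars the mean of 3. KO libraries lie below WT in every population and lowest in LP, at 7.25 to 9.05 CPM.

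The members called in each population were as follows. In LP, 11 of 33 changed, 9 of them lower (Trp53, Cdkn1a, Mdm2, Mdm4, Ccng1, Btg2, Trp53inp1, Eda2r and Aen) and 2 higher (Pmaip1 and Psrc1), where 14.9% of all genes changed, 6.63% lower and 8.28% higher. The median log2 fold change of the 33 was -0.52, beside 0.02 for all genes. In ML, 7 changed, 5 higher (Phlda3, Plk3, Perp, Psrc1 and Apaf1) and 2 lower (Trp53 and Gadd45a), where 15.2% of all genes changed, 11.8% higher and 3.50% lower, and the median was -0.03. In basal cells 3 changed, with Psrc1 and Pmaip1 higher and Trp53 lower, where 3.15% of all genes changed, 2.96% higher and 0.188% lower, and the median was -0.06. Trp53 is itself a gene deleted in the KO mice. Without it, 10 of 32 changed in LP (8 lower, median -0.45) and 6 in ML (1 lower, median -0.03). In basal cells 2 of the 32 changed, 0 of them lower (median -0.05). Trp53 and Psrc1 were called in all 3 populations, 16 members were called in at least 1, and 17 in none. Leaving out 1 mouse moved the LP count to 7 (KO mouse 3) or 6 (WT mouse 2), the basal count to 1 (KO mouse 2) and the ML count to 12 (WT mouse 1). Over such fits the calls among all genes also moved, with 674 to 2307 in LP, 231 to 536 in basal cells and 1461 to 2599 in ML. The main fit called 2456, 519 and 2511 genes.

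**Figure D2:**
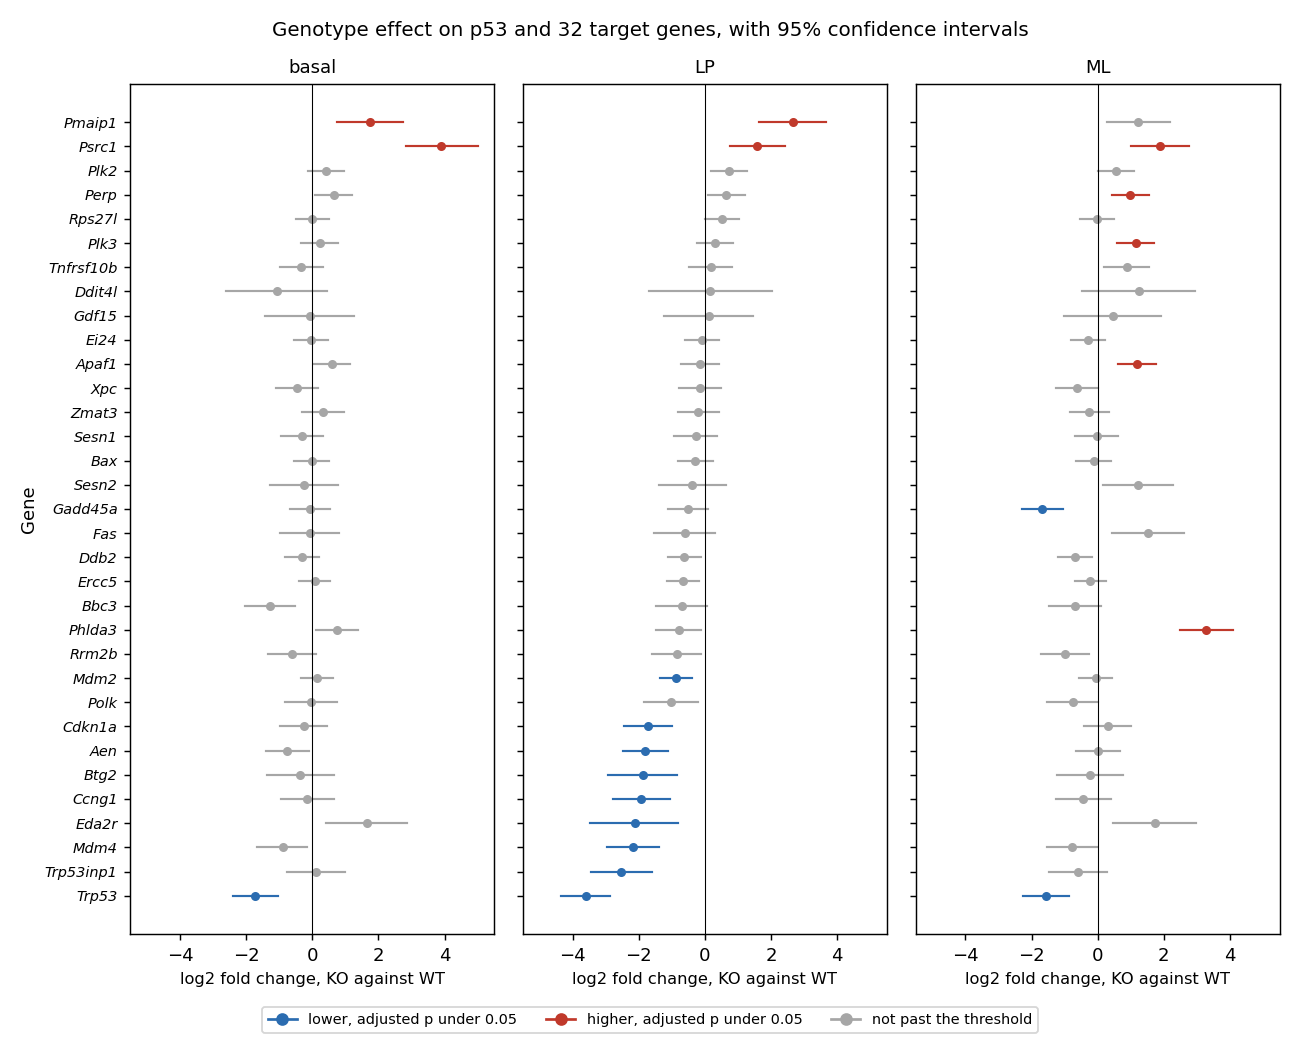
Log2 fold change of KO against WT (horizontal axis) for each of the 33 genes (vertical axis, ordered by the LP value), with 95% confidence intervals, in basal cells, LP and ML. In LP the 9 genes called lower (blue) form the bottom of the order with Polk among them, and of those 9 only Trp53 was also called in basal cells and ML.

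Mdm2 and Mdm4, a pair of genes that restrain p53, fell in LP of KO mice. Mdm2 (chr10:117688875-117710758), the ligase that degrades p53, stood at 104, 106 and 75.5 CPM in LP KO and at 206, 191 and 129.6 CPM in LP WT. Its basal values were 284, 163 and 236 CPM in KO and 220.3, 202 and 193 CPM in WT, and its ML values 125, 124 and 123 CPM in KO and 154, 128 and 107 CPM in WT. Only in LP were the genotypes apart, with the KO mean at 54.2% of WT (log2 fold change -0.88, CI -1.37 to -0.39, adjusted p = 0.017). This call was lost without KO mouse 3, WT mouse 1 or WT mouse 2 and in a fit of the 6 LP libraries alone, with an adjusted p of up to 0.13. Mdm4 (chr1:132986105-133030587), the partner of Mdm2 that covers p53's activation domain, was low in every KO group. LP KO held 28.9, 42.6 and 9.09 CPM against 93.3, 162 and 109 CPM in WT, basal KO 44.3, 45.5 and 48.1 CPM against 73.7, 88.1 and 95.7 CPM, and ML KO 49.9, 68.2 and 78 CPM against 97.1, 146 and 93.4 CPM. The genotypes were apart in all 3 populations, but the test was passed in LP alone (22.1% of WT, log2 fold change -2.17, CI -2.96 to -1.39, adjusted p = 8.8e-04). The adjusted p was 0.28 in basal cells, with a KO mean of 53.5% of WT, and 0.16 in ML, with 58.2%, and a fit of the 6 libraries of the population alone called the fall in both (lowest adjusted p over the settings 0.027 in basal cells and 0.039 in ML). The basal fall also passed with a replicate block and the ML fall without KO mouse 3.

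Ccng1 (chr11:40748552-40755309), cyclin G1, which recruits a phosphatase to Mdm2, fell in LP as well. LP KO held 19.8, 27.5 and 25.8 CPM and LP WT 55.8, 144 and 77.2 CPM. In basal cells the KO values were 74.9, 44.8 and 72.3 CPM and the WT values 41.9, 82.4 and 88 CPM, and in ML they were 26.7, 84.4 and 82.5 CPM and 87.6, 108 and 67.5 CPM. The LP groups were apart and the others interleaved. The LP mean was 26.4% of WT (log2 fold change -1.92, CI -2.77 to -1.07, adjusted p = 0.0043), a call lost without WT mouse 2 (adjusted p = 0.059). Trp53inp1 (chr4:11156441-11174379), a nuclear protein that promotes phosphorylation of p53 and autophagy, fell further. LP KO held 42.8, 72.6 and 54.2 CPM and LP WT 289.8, 519 and 171 CPM. The basal libraries held 165, 73.5 and 109.8 CPM in KO and 75.6, 96.7 and 150.3 CPM in WT, and the ML libraries 300.2, 599.9 and 633 CPM in KO and 777, 1127 and 408 CPM in WT. In LP the KO mean was 17.3% of WT (log2 fold change -2.53, CI -3.46 to -1.59, adjusted p = 0.0011), and the basal and ML groups overlapped. WT ML cells, whose marker sum was lower in LP KO than in LP WT, held more Trp53inp1 than WT LP (771 against 327 CPM), and the part of this in the LP result was not tested.

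Of the targets that stop the cell cycle, Cdkn1a and Btg2 fell in LP and Gadd45a in ML. Cdkn1a (chr17:29090979-29100722) held 162, 139 and 105 CPM in LP KO against 638, 456 and 244 CPM in LP WT. Basal KO cells held 832, 378 and 353 CPM against 639, 693 and 543 CPM in WT, and ML KO 152, 170.1 and 166 CPM against 189, 106 and 105 CPM in WT. In LP every KO library lay below every WT library, down to the level of ML cells, whereas 1 basal KO library lay above every basal WT library and the other 2 below every one. The LP mean was 30.3% of WT (log2 fold change -1.72, CI -2.46 to -0.99, adjusted p = 0.0034), and this call held in all 13 alternative settings. The basal difference was -0.26 (CI -0.98 to 0.45) and the ML difference 0.30 (CI -0.42 to 1.01). Cdkn1a, whose promoter is printed above, shares 273 of its 3553 annotated exonic bases with an annotated transcript of uncertain type on the other strand, and the library kit does not mark strand.

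Btg2 (chr1:134074865-134079155), an antiproliferative factor that speeds mRNA decay, stood at 295, 366 and 499 CPM in LP KO and at 695, 2250.0 and 1326 CPM in LP WT. In basal cells it stood at 454, 467 and 689.5 CPM in KO and 152, 1049.6 and 865 CPM in WT, and in ML at 369, 423 and 509 CPM in KO and 397, 598 and 534 CPM in WT. WT mice varied widely, and WT mouse 1 was lowest of the 3 in every population. The LP mean was 27.1% of WT (log2 fold change -1.88, CI -2.92 to -0.84, adjusted p = 0.017), a call lost without any 1 of the 3 KO mice or without WT mouse 2 (adjusted p up to 0.12). Gadd45a (chr6:67035096-67037407), a damage-induced stress sensor, was the target that fell in ML. ML KO held 113, 147 and 157 CPM and ML WT 633, 456 and 251 CPM. In LP the values were 57.2, 45.1 and 60.8 CPM in KO and 92.4, 84.3 and 57.1 CPM in WT, and in basal cells 125, 72.3 and 74.5 CPM in KO and 97.5, 100 and 85.5 CPM in WT. Only the ML groups were apart, with a KO mean of 31.2% of WT (log2 fold change -1.68, CI -2.30 to -1.06, adjusted p = 4.5e-04), and this call held in all 13 settings. Gadd45a was itself higher in WT ML than in the other WT populations, and ML markers were lower in ML KO, so the part of cell identity in this fall was not tested.

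Among the polo-like kinases that p53 induces, Plk3 rose in ML. Plk3 (chr4:117128655-117133963) held 286, 129 and 152 CPM in ML KO and 62.6, 86 and 105 CPM in ML WT. LP KO held 468, 424 and 415 CPM against 380.2, 397 and 279 CPM, and basal KO 212, 231 and 232 CPM against 213, 203 and 165 CPM. ML KO mouse 1, the library with the highest LP marker sum, was highest, and WT LP cells held more Plk3 than WT ML (352 against 84.6 CPM). The ML mean was 223% of WT (log2 fold change 1.15, CI 0.59 to 1.71, adjusted p = 0.0055), and the call was lost without KO mouse 1 and with a replicate block (adjusted p up to 0.09). Plk2 passed in no population, with log2 fold changes of 0.42, 0.73 and 0.56 in basal cells, LP and ML and adjusted p of 0.63, 0.061 and 0.15. Psrc1 (chr3:108383804-108388231) encodes a microtubule-binding protein of the mitotic spindle and is described as both a p53 target and a cell division gene.

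Psrc1 was higher in KO in every population. Basal KO cells held 4.7, 7.09 and 10.6 CPM against 0.416, 0.431 and 0.753 CPM in WT, the largest rise among the members. LP held 10, 11.7 and 24.9 CPM in KO and 6.17, 5.78 and 3.92 CPM in WT, and ML 10, 13.8 and 16 CPM in KO and 5.07, 4.09 and 2.4 CPM in WT. No KO library fell to the WT range of its population. The log2 fold changes were 3.89 (CI 2.82 to 5.0, adjusted p = 7.8e-05) for basal cells, 1.58 (CI 0.75 to 2.41, adjusted p = 0.013) for LP and 1.89 (CI 1.02 to 2.75, adjusted p = 0.0033) for ML. The LP call was lost without KO mouse 3 or WT mouse 2, in the 6 LP libraries alone and with a replicate block (adjusted p up to 0.076).

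Among the members that act in cell death, Pmaip1, which encodes the BH3-only protein Noxa, rose in LP and basal cells. LP KO held 56.2, 37.7 and 29.2 CPM against 3.33, 8.12 and 7.85 CPM in WT. Basal cells held 30.8, 18.3 and 22.1 CPM in KO and 2.65, 7.07 and 12.1 CPM in WT, and ML 40.9, 34.4 and 23.8 CPM in KO and 7.6, 24 and 10 CPM in WT. The genotypes were apart in basal cells and LP, and in ML 1 WT library reached the lowest KO library. The KO mean was 638% of WT in LP (log2 fold change 2.65, CI 1.63 to 3.67, adjusted p = 0.0015), a call that held in all 13 settings. In basal cells the log2 fold change was 1.74 (CI 0.76 to 2.73, adjusted p = 0.048), a call lost in 7 of 13 settings, among them leaving out any 1 KO mouse, WT mouse 1 or WT mouse 2 (adjusted p up to 0.17), and in ML it was 1.23 (CI 0.27 to 2.19, adjusted p = 0.078). Bbc3, which encodes the related protein Puma, pointed the other way, with log2 fold changes of -1.27, -0.70 and -0.69 in basal cells, LP and ML and adjusted p of 0.067, 0.21 and 0.23. Bax, a pore former in cell death, had log2 fold changes of -0.02, -0.29 and -0.12, with intervals that all lay between -0.81 and 0.51 and so held no difference of 2-fold.

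Aen (chr7:78895927-78911209), a nuclease induced during apoptosis, fell in LP. LP KO held 10.7, 17.1 and 11.5 CPM and LP WT 52.8, 37.1 and 47.1 CPM. Its basal values were 46.4, 48.9 and 30.6 CPM in KO and 114, 47.9 and 49.7 CPM in WT, and its ML values 21.2, 31.7 and 29.5 CPM in KO and 26.1, 33 and 23.1 CPM in WT. The LP groups were wide apart and in ML the KO mean was 100.2% of WT. In LP the KO mean was 28.7% of WT (log2 fold change -1.80, CI -2.47 to -1.13, adjusted p = 0.0011), and the call held in all 13 settings. The receptor gene Eda2r (chrX:97333837-97377234), which signals for ectodysplasin A2, went down in LP from a low level. LP KO held 0.292, 1.65 and 0.428 CPM against 0.864, 5.23 and 4.6 CPM in WT, basal KO 7.62, 3.98 and 4.28 CPM against 1.66, 1.58 and 1.88 CPM, and ML KO 2.18, 8.5 and 8.19 CPM against 2.69, 2.59 and 1.24 CPM. The LP groups overlapped, and in basal cells every KO library was above WT. The LP log2 fold change was -2.13 (CI -3.48 to -0.81, adjusted p = 0.029), a call lost in 6 of 13 settings, among them leaving out KO mouse 1 or 3 or WT mouse 2 or 3 (adjusted p up to 0.17). The basal difference of 1.64 (CI 0.42 to 2.87) and the ML difference of 1.72 (CI 0.47 to 2.97) had adjusted p of 0.18 and 0.058.

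Phlda3, Perp and Apaf1 rose in ML. Phlda3 (chr1:135766085-135769134), a PH-domain protein that blocks Akt at the membrane, held 14.9, 25.5 and 18 CPM in ML KO and 2.06, 1.33 and 2.48 CPM in ML WT. LP held 7.3, 5.55 and 5.7 CPM in KO and 5.92, 12 and 13.7 CPM in WT, and basal cells 143, 109 and 101 CPM in KO and 103, 57.4 and 49.4 CPM in WT. The ML groups were far apart, and basal cells of both genotypes were highest. The ML log2 fold change was 3.28 (CI 2.48 to 4.09, adjusted p = 4.7e-06), the largest of any member in ML, and the call held in all 13 settings. Perp (chr10:18845071-18857073), a desmosome protein and apoptosis effector, held 228, 308 and 245 CPM in ML KO and 158, 118 and 118 CPM in ML WT. Basal KO held 461, 467 and 540.5 CPM against 271, 308 and 359.7 CPM, and LP KO 129, 128 and 132 CPM against 131, 65.8 and 52 CPM. KO was above WT in basal cells and ML without overlap. The test was passed in ML (198% of WT, log2 fold change 0.99, CI 0.43 to 1.55, adjusted p = 0.016), a call lost without KO mouse 2 or WT mouse 2 (adjusted p up to 0.09), and not in basal cells (0.65, adjusted p = 0.3) or LP (0.65, adjusted p = 0.11).

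Apaf1 (chr10:90989311-91082743), the scaffold of the apoptosome, held 26.6, 27.4 and 25.1 CPM in ML KO and 11.4, 12 and 11.5 CPM in ML WT, with little spread in either group. Basal cells held 44.9, 54.4 and 61.4 CPM in KO and 24.8, 46.5 and 35.5 CPM in WT, and LP 25.2, 19.6 and 11.8 CPM in KO and 17.6, 23.2 and 21.6 CPM in WT. In ML the KO mean was 226% of WT (log2 fold change 1.18, CI 0.60 to 1.76, adjusted p = 0.0061), and the call held in all 13 settings. The basal marker sum rose in ML KO by an amount equal to 3.1% of its level in basal KO cells, and the rises of Phlda3, Perp and Apaf1 came to 14.9%, 26.4% and 27.5% of their basal KO levels. The LP marker sum rose in ML KO by 11.3% of its LP KO level, and Plk3 rose by 23.9% of its own, and Psrc1 by 60.7%. The part of cells of another population in these rises was not tested. Of the remaining death genes, Fas and Tnfrsf10b, receptors that start apoptosis from outside the cell, had ML log2 fold changes of 1.52 and 0.88 without overlap of the genotypes and adjusted p of 0.055 and 0.079. Ei24, a membrane protein of the endoplasmic reticulum, had group means of 56.7 to 93.7 CPM and passed no test between genotypes.

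**Figure D3:**
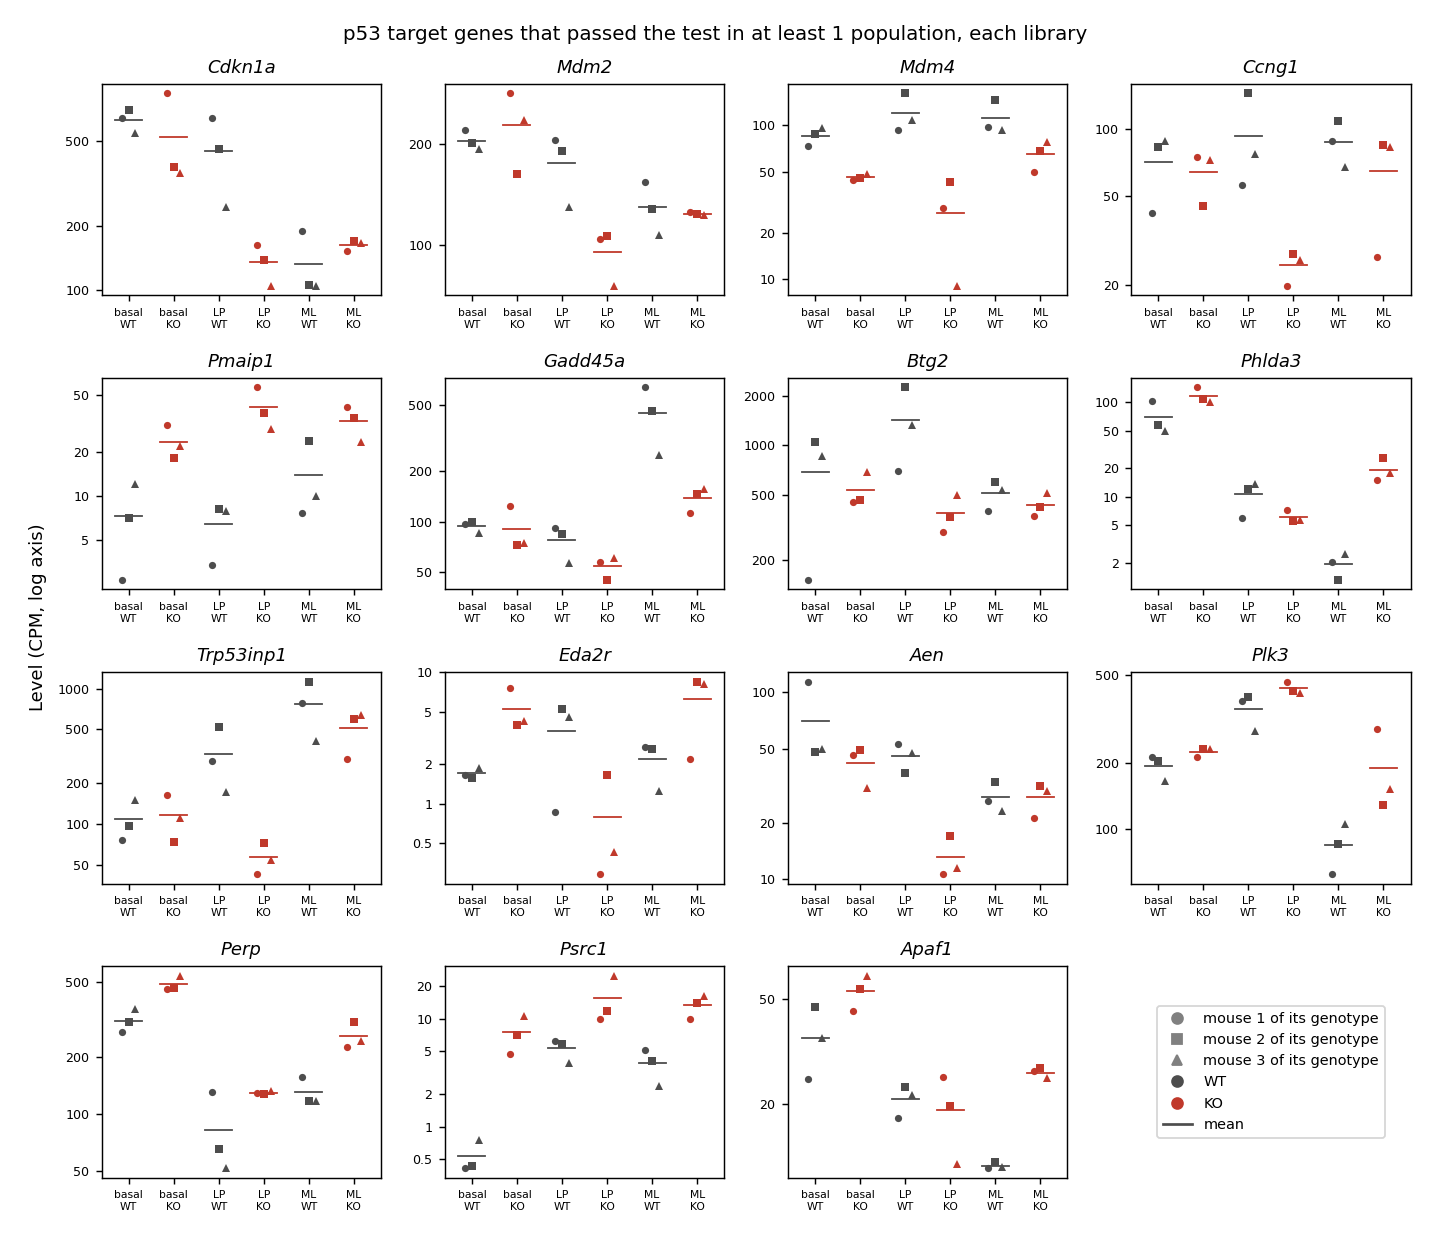
Level in CPM (log axes) of the 15 target genes called in at least 1 population, in each library by population and genotype; symbols mark the mouse and bars the mean of 3. In LP, Cdkn1a, Mdm2, Mdm4, Ccng1, Btg2, Trp53inp1 and Aen fall without overlap, and Phlda3, Plk3, Perp and Apaf1 rise in ML.

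The members of DNA repair and growth restraint named next did not pass edgeR's test of KO against WT in any population. Of the 17 members called in no population, 1, 6 and 6 had an unadjusted p under 0.05 in basal cells, LP and ML, and DESeq2 called Bbc3 in basal cells, Plk2, Ercc5 and Ddb2 in LP and Fas, Ddb2 and Rrm2b in ML. limma voom called Bbc3 in basal cells and Rrm2b in ML. The matching shares of all genes, at an unadjusted p or by DESeq2 or limma voom, are not given here. These counts are therefore not read as a result about the members. The repair factors Ddb2 and Xpc, which recognise ultraviolet lesions, and Ercc5, which cuts beside them, had LP log2 fold changes of -0.62, -0.16 and -0.67 with adjusted p of 0.094, 0.76 and 0.053. Polk, a polymerase that copies damaged DNA, had -1.02 (adjusted p = 0.085) and Rrm2b, the p53-induced ribonucleotide reductase subunit, -0.86 (adjusted p = 0.1). KO and WT did not overlap in LP for Ddb2, Ercc5, Polk and Rrm2b, all lower in KO. Non-overlap was found in LP for 16 members, 12 of them lower, where it was found for 31.0% of all genes, in ML for 15 members (37.8% of all genes) and in basal cells for 7 (17.6%). Sesn1 and Sesn2, stress sensors that restrain the growth kinase mTOR, had group means of 15 to 20.6 and of 22.6 to 155 CPM, and Ddit4l, a related inhibitor, of 2.58 to 13.3 CPM. Sesn2 was highest in mouse 1 of its genotype in all 6 groups, and its ML KO mean was 231% of WT (log2 fold change 1.22, adjusted p = 0.12) with overlapping groups, a difference that passed without WT mouse 1 and with the replicate block. With the mouse as a replicate block its genotype effect differed between LP and ML (adjusted p = 7.5e-04) and between ML and basal cells (adjusted p = 0.0015), and WT LP differed from WT basal cells (adjusted p = 0.0018), none of which passed without the block. Gdf15, a secreted stress cytokine, ranged from 7.79 to 12.5 CPM in its group means, Zmat3, an RNA-binding regulator of splicing, from 9.76 to 38.2 CPM, and Rps27l, a ribosomal protein paralogue, from 40.7 to 60.3 CPM. Rps27l is close in sequence to Rps27, and reads shared between copies may be split by the counting. The LP intervals of Gdf15 (-1.23 to 1.46) and Ddit4l (-1.70 to 2.02) held 2-fold differences in either direction, while those of Ei24 (-0.61 to 0.41), Sesn1 (-0.93 to 0.36), Xpc (-0.79 to 0.47) and Zmat3 (-0.82 to 0.43) held none.

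In all 8 calls where the genotype effect in LP differed from another population, it was the lower one. Lower here need not mean a fall in LP, since Phlda3 and Apaf1 were called higher in ML and were not called in LP. Between LP and ML the effect differed for 6 members (Trp53, Cdkn1a, Phlda3, Eda2r, Aen and Apaf1), all lower in LP, where 6.37% of all genes differed, 1.22% higher and 5.15% lower. With the mouse as a replicate block, which uses the 3 libraries that each mouse gave, the count was 10. Between LP and basal cells it differed for 2 (Trp53inp1 and Eda2r, both lower, against 1.09% of all genes, 0.389% higher and 0.704% lower) and for 5 with the block, and between ML and basal cells for 2 (Gadd45a lower and Phlda3 higher in ML, against 5.53% of all genes, 1.03% lower and 4.50% higher) and for 6 with the block. The shares of all genes are from the fit without the block. Over the alternative settings, all genes called ran from 511 to 1814 for LP against ML (1049 in the main fit). They ran from 30 to 559 (180) for LP against basal cells and from 509 to 1480 (910) for ML against basal cells. The counts with the block are therefore not read against those shares. Cdkn1a differed by -2.02 on the log2 scale between LP and ML (CI -3.04 to -0.99, adjusted p = 0.015), a call lost without KO mouse 2, KO mouse 3 or WT mouse 2 (adjusted p up to 0.11). Phlda3 differed by -4.08 (CI -5.14 to -3.02, adjusted p = 3.5e-05), which held in every setting. For Mdm2, Mdm4, Ccng1 and Btg2, which passed in LP alone, the differences between LP and the other populations did not pass (log2 differences of -0.82 to -1.77), so their response was not shown to differ between populations, although Btg2 passed against both with the block. The pairs of contrasts share the LP, basal or ML libraries.

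In WT mice the targets were spread over the populations rather than high together in 1 of them. Between WT ML and WT basal cells 20 members differed (9 higher and 11 lower in ML, where 54.5% of all genes differed, 25.7% higher and 28.9% lower), between WT LP and WT ML 14 (9 higher and 5 lower in LP, where the shares were 33.7%, 17.6% and 16.1%) and between WT LP and WT basal cells 8 (3 higher and 5 lower in LP, where they were 37.1%, 17.3% and 19.8%). Per kilobase of exon, Cdkn1a was highest of the members in WT basal cells at a mean of 309 CPM per kilobase, Btg2 in WT LP at 462 and Gadd45a in WT ML at 365, and Eda2r was lowest in all 6 groups. In KO mice Cdkn1a stayed highest in basal cells at 257 CPM per kilobase, while Plk2 was highest in LP at 266 and in ML at 183. Cdkn1a was 21.3% as high in WT ML as in WT basal cells (log2 fold change -2.24, CI -2.99 to -1.49, adjusted p = 3.2e-05). Phlda3 was the most basal of the members, with WT ML at 2.8% and WT LP at 15.1% of WT basal cells (log2 fold changes -5.12 and -2.71, adjusted p = 2.2e-09 and 2.0e-06). Gadd45a, Trp53inp1 and Zmat3 were higher in WT ML than in basal cells by 2.24, 2.84 and 1.98 on the log2 scale (adjusted p = 4.2e-06, 3.1e-05 and 1.8e-05). Trp53 itself was ordered LP, basal, ML at 51.8, 40.1 and 24.3 CPM per kilobase in WT. LP and basal cells were not told apart (adjusted p = 0.38). Basal cells and ML did not overlap, but the difference missed the threshold (log2 fold change -0.73, CI -1.40 to -0.05, adjusted p = 0.063) and passed it in 6 of 12 alternative settings, the mouse block among them (adjusted p from 0.042 to 0.33). LP was above ML (log2 fold change 1.10, adjusted p = 0.013), a call lost without WT mouse 3 (adjusted p = 0.28).

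**Figure D4:**
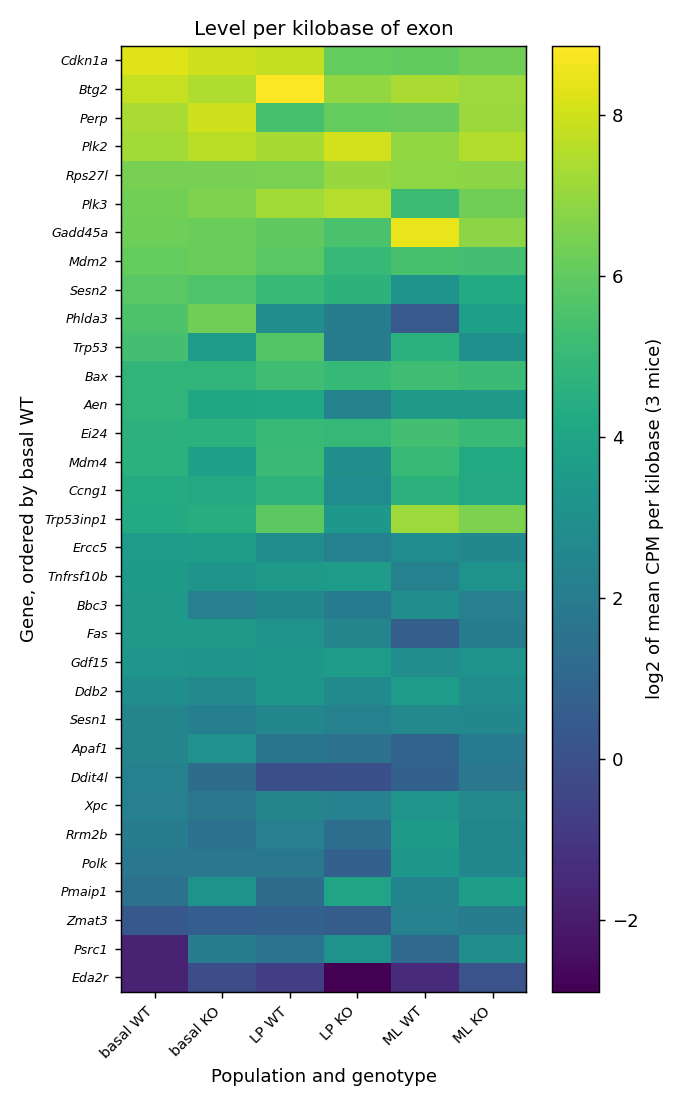
Mean level of the 33 genes as log2 of CPM per kilobase of exon (colour), by population and genotype (columns, means of 3 mice), ordered by basal WT. Cdkn1a is brightest in both basal columns and dims from LP WT to LP KO, Gadd45a is brightest in ML WT, and Eda2r is darkest in every column.

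The rest of the pathway was read from lists of related genes. One list held 22 cell division genes described as restrained by p53 through p21 and the DREAM complex. Of these, 18, 19 and 19 rose in basal cells, LP and ML and 0 fell, where 2.96%, 8.28% and 11.8% of all genes rose. Their median log2 fold changes were 3.57, 2.74 and 3.57. Cdkn1a, which encodes p21, was called lower in LP alone, and the part of p53, p21 and DREAM in these rises was not tested. Cdk1, the kinase that starts mitosis, held 14.5, 30.3 and 24.7 CPM in basal KO and 0.364, 0.538 and 0.188 CPM in basal WT. In LP Cdk1 held 55.8, 56.4 and 54.9 CPM in KO and 4.56, 4.56 and 5.33 CPM in WT. The groups were far apart, and the log2 fold changes of Cdk1 were 5.82, 3.52 and 3.73 for basal cells, LP and ML (adjusted p = 4.5e-08, 3.2e-06 and 4.9e-07). Of the 12 subunits of DREAM and its pocket protein relatives, Rb1 fell in LP and Rbbp4 rose there (log2 fold change 0.70, adjusted p = 0.014), and these were the calls of edgeR in that list, a count near the 14.9% of all genes called in LP. Rb1, the retinoblastoma protein, held 80.3, 164 and 125 CPM in LP KO and 309.8, 837 and 321 CPM in LP WT (25.2% of WT, log2 fold change -1.99, adjusted p = 8.3e-04).

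Of 28 other p53 targets tested (29 listed), 2 rose in basal cells, 5 rose and 2 fell in LP, and 7 rose and 2 fell in ML, with medians of 0.21, 0.11 and 0.30. The shares of all genes were 2.96%, 8.28% and 11.8% higher and 0.188%, 6.63% and 3.50% lower, and the falls in LP were near that background. Dram1, a lysosomal protein of autophagy, held 4.5, 4.63 and 4.51 CPM in LP KO and 0.123, 0.111 and 0.429 CPM in LP WT (log2 fold change 4.07, adjusted p = 1.4e-05). The LP WT libraries held 1 to 7 counts of Dram1 each, 9 in sum, so the size of this rise rests on values near 0. Ephx1, an epoxide hydrolase, fell in LP (84.1, 89.2 and 129 against 213, 246 and 196 CPM, adjusted p = 0.0053) and rose in ML (52.6, 33.9 and 27.6 against 10.9, 12.5 and 16.8 CPM, adjusted p = 3.9e-04). The strongest rises in ML were of Thbs1 and Igfbp3, secreted proteins of the matrix and of growth factor control, with means of 1206 and 64.9 CPM in KO against 37.6 and 0.933 CPM in WT. Both were far higher in basal WT cells (11557 and 1738 CPM). LP WT cells also held much Thbs1 (2269 CPM) but little Igfbp3 (5.44 CPM). Basal and LP marker sums both rose in ML KO, and the part of either population in the rises of Thbs1 and Igfbp3 was not tested. Tap1, a peptide transporter for antigen presentation, rose in basal cells and LP (log2 fold changes 1.81 and 1.65, adjusted p = 0.025 and 0.017).

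Of 22 kinases, ligases and partners that act on p53, 2 rose in basal cells, 1 rose and 1 fell in LP, and 4 rose in ML. Of all genes, 3.15%, 14.9% and 15.2% were called in basal cells, LP and ML, and the counts in LP and ML were not far from that background. Cdkn2a, whose locus encodes both the Mdm2 inhibitor p19Arf and the kinase inhibitor p16, rose in all 3 populations. In LP it held 4.5, 5.58 and 7.71 CPM in KO and 0, 0.222 and 0 CPM in WT, and in basal cells 0.27, 3.93 and 3.1 CPM in KO and 0, 0 and 0.188 CPM in WT. Basal KO mouse 1 was close to the WT libraries. In LP Cdkn2a had 542 counts over the 3 KO libraries and 2 over the 3 WT libraries, a ratio of 100.4 after scaling (95% counting interval 27.7 to 831), and in basal cells 192 and 2 counts, a ratio of 80.3 (21.9 to 668). These intervals cover counting error only, and edgeR's adjusted p was 9.1e-04 and 0.0055. In ML Cdkn2a held 7.14, 18.1 and 11.2 CPM in KO and 0.158, 0.751 and 1.97 CPM in WT (log2 fold change 3.35, adjusted p = 8.1e-04). Chek1, the checkpoint kinase, also rose in basal cells and ML (log2 fold changes 1.39 and 1.33, adjusted p = 0.032 and 0.016), and Chek2 and Trp53bp2 in ML (1.80 and 0.76, adjusted p = 0.0072 and 0.042). Atr, the kinase upstream of Chek1, fell in LP (37.9% of WT, adjusted p = 0.028), though the groups overlapped. It held 25.6, 41.4 and 15.8 CPM in LP KO and 38.7, 90.8 and 89.2 CPM in LP WT. The p53 relatives Trp63 and Trp73 rose in ML, Trp63 from 0.158, 0.584 and 2.31 CPM in WT to 27.7, 33.9 and 29.8 CPM in KO (log2 fold change 4.53, adjusted p = 1.2e-05). Trp63 is itself a defining gene of basal cells, at a mean of 247 CPM in basal WT, and its rise came to 12% of its basal KO level; the part of basal cells in it was not tested. Trp73 had 63 counts over the ML KO and 1 over the ML WT libraries, a ratio of 36.7 (counting interval 6.35 to 1471, edgeR's adjusted p = 0.024).

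**Figure D5:**
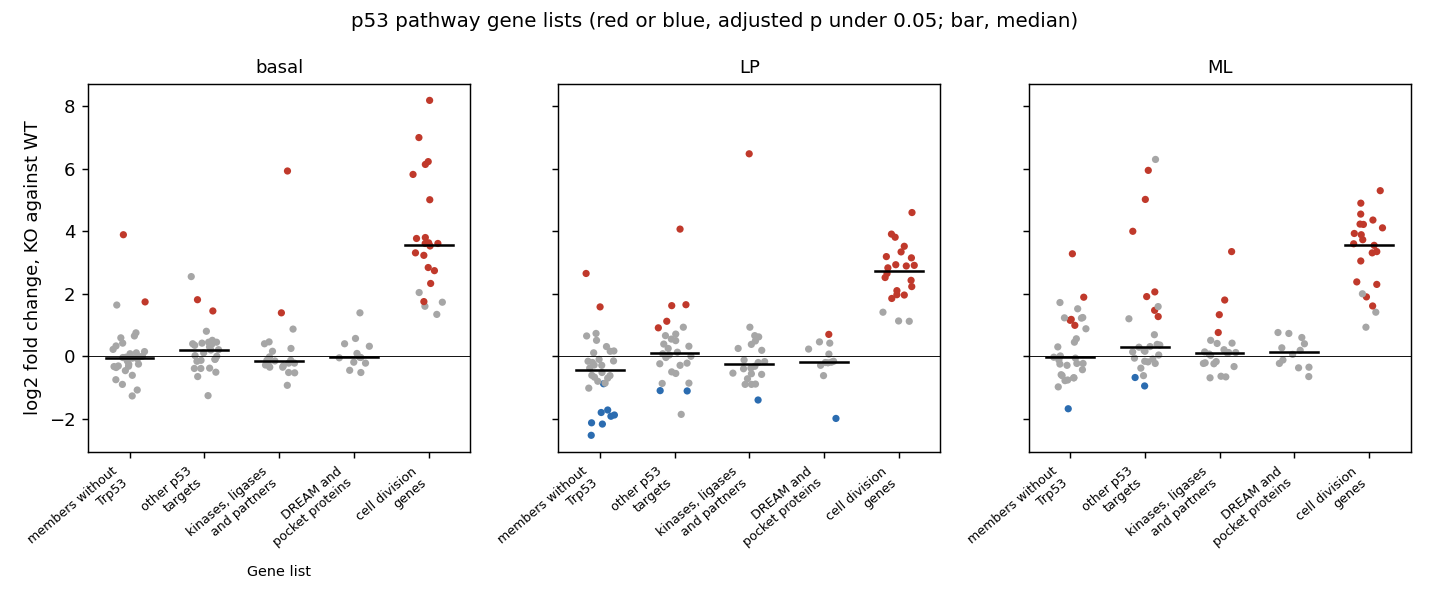
Log2 fold change of KO against WT (vertical axis) for each gene of 5 p53 pathway lists in basal cells, LP and ML; red and blue points passed the test higher and lower, grey points did not, and bars are medians. The cell division genes lie above 0 in all 3 populations (medians 3.57, 2.74 and 3.57), and only in LP does the median of the target genes without Trp53 lie well below 0, at -0.45.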

How the data were processed

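Total RNA had been extracted with a miRNeasy kit and made into TruSeq RNA v2 libraries, per the labels' protocols. The authors deposited whole-number read counts per gene, made with featureCounts on mm10, per the submitters' processing notes. The sources used here name no aligner, annotation, strand setting or version. The table's gene length column, another deposited value, was used for levels per kilobase. Of 27179 identifiers, 1904 matched no symbol (1.6% of counts), and 0 columns lacked a sample. The single-library files equalled the table in all 18 cases.

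Genes were filtered with filterByExpr (minimum count 10, minimum total 15), which left 16466, and scaled by TMM (factors 0.832 to 1.19). edgeR 4.0.16 in R 4.3.3 fitted 1 mean per group over all 18 libraries (robust quasi-likelihood fit, biological coefficient of variation 33.3%), with Benjamini-Hochberg adjustment within each contrast at 0.05. The steps were tested on simulated data. Intervals are at 95%. Replicates of a group differed beyond counting noise (chi-square per degree of freedom 22.6 to 204).

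Within a genotype, libraries with 1 replicate number came from 1 mouse, per the labels. Their deviations from the group means had correlations between 0.095 and 0.33 (17 of 18 pairs above 0.1), so a paired fit with a mouse block stands beside the differences between populations. KO and WT mice with equal numbers are different animals (-0.098 to 0.26, 4 of 9 pairs above 0.1).

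The alternatives were RLE scaling, library size alone, no filter on low counts, DESeq2 1.42.0, limma 3.58.1 voom, leaving out each mouse, a fit of the 6 libraries of a population and the replicate block. The members and the gene lists were chosen with earlier results of these data known. Every member is named. Trp53 and each member called in a genotype contrast are given in every library, and the others by group means or differences. Of each pathway list at most 4 called genes of lowest p per population are given. Symbols, start sites and promoters came from RefSeq tables on GRCm38.p6, and exon overlaps from GENCODE M21. Pseudogenes of Trp53 and Mdm4 are annotated and could share reads. Opposite-strand exons overlap those of Cdkn1a, Gadd45a, Plk3, Ddb2, Ei24 and Rrm2b, and Bax shares 192 exonic bases with a same-strand gene.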

Additional observations from a re-analysis of the deposited data

Results flagged for a closer look

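The genotype effect differed between populations, by the interaction test of edgeR, for 8 members in 10 contrasts. Values are differences of log2 fold changes. Between LP and ML they were -2.03 for Trp53, -2.02 for Cdkn1a, -4.08 for Phlda3, -3.85 for Eda2r, -1.81 for Aen and -1.33 for Apaf1. Between LP and basal cells they were -2.64 for Trp53inp1 and -3.78 for Eda2r, and between ML and basal cells -1.62 for Gadd45a and 2.53 for Phlda3. The adjusted p of the interaction was 3.5e-05 and 0.0024 for Phlda3 and between 0.0092 and 0.045 for the others. Both differences of Phlda3 passed in all 12 alternative settings. That of Apaf1 was lost in 8 of 12, those of Trp53inp1 and of Eda2r between LP and basal cells in 5, that of Gadd45a in 4, those of Cdkn1a, Aen and of Eda2r between LP and ML in 3, and that of Trp53 in 1.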

How the results depend on the processing

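No called value of a member changed sign in any of the 13 alternative settings. Of 21 member calls between genotypes 12 held in all settings, of 10 differences between populations 2, and of 42 WT population calls 27. Scaling by library size alone moved the median log2 fold change of all genes from -0.02, 0.02 and 0.02 to 0.08, 0.24 and 0.12 in basal cells, LP and ML.

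Leaving out each mouse in turn gave 1 to 4 called members in basal cells, 6 to 14 in LP and 6 to 12 in ML. In those fits all genes called ran from 231 to 536 in basal cells, 674 to 2307 in LP and 1461 to 2599 in ML. The main fit called 519, 2456 and 2511 genes. For differences between populations, leaving out a mouse gave 0 to 2 (LP against basal), 2 to 6 (LP against ML) and 1 to 2 (ML against basal), and for WT LP against WT basal cells 4 to 8. In the same order, all genes called ran from 30 to 132, 511 to 833, 509 to 843 and 3973 to 6333. The main fit called 180, 1049, 910 and 6106 genes. DESeq2 called 11 members in ML and 5 for LP against basal. limma voom called 0 for LP against basal and 5 for WT LP against WT basal. The cause of these shifts was not tested, beyond there being fewer libraries where a mouse was left out. With the replicate block the counts were 5 in basal cells, 5 for LP against basal, 10 for LP against ML and 6 for ML against basal. The counts of all genes under DESeq2, limma voom and the block alone are not given here. The block moved no other count of members by over 1.5 times. Between genotypes the block joins different mice that share only a number.

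Values that were not called and changed sign when a mouse was left out were the Trp53 genotype effect in ML against basal (-0.20 to 0.65, below 0 without KO mouse 3, and -0.05 without WT mouse 3), Trp53 in WT LP against WT basal cells (-0.00 to 0.55), Gdf15 between genotypes in ML (-0.11 to 2.06) and Gdf15 in WT LP against WT ML (-0.25 to 2.43), the last 3 below 0 without WT mouse 3.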
